A study of Rattus norvegicus with 6 samples.

Results

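Carboxylesterases are serine hydrolases of the endoplasmic reticulum that split esters, amides and thioesters into an acid and an alcohol, amine or thiol. The liver holds members of the Ces1 subfamily, which tend to act on esters with a bulky acid and a small alcohol, and of the Ces2 subfamily, which tend to act on esters with a small acid and a bulky alcohol. Aadac, the arylacetamide deacetylase, is a microsomal hydrolase of another family with an overlapping range of drug substrates. Pyrethroid insecticides are esters, and cleavage of the ester bond, beside oxidation by cytochromes P450, is a main route of their breakdown in mammals.

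The probe sets described here are those of the array whose annotated gene symbol starts with Ces1 or Ces2, together with Aadac. There were 7 of them among 31099 probe sets: 1 for Ces2c, 1 for Ces1d, 1 for Ces1e, 1 that is annotated to both Ces1f and Cesl1, 2 for Ces1c and 1 for Aadac. In the rat gene table of assembly GRCr8, 21 entries carry a Ces1, Ces2 or Cesl1 symbol, 4 of them pseudogenes. A probe set was annotated to 5 of the 7 Ces1 and Cesl1 entries and to 1 of the 14 Ces2 entries, so the Ces2 subfamily is represented by Ces2c alone, and Ces2a was not analysed here. The genes are close paralogues and no probe letters were used, so a signal may hold RNA of a family member that the annotation does not name.

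Liver RNA came from male BrlHan:WIST@Jcl(GALAS) rats, a Wistar stock, with 1 Affymetrix array per animal. In the momfluorothrin group 3 rats ate a powdered diet with epsilon-momfluorothrin, a synthetic pyrethroid insecticide, for 2 weeks, and in the control group 3 rats ate the diet without it for the same time. All 6 arrived at an age of 4 weeks, spent 1 week in quarantine and were sampled at 7 weeks. The labels disagree on the dietary dose, which is 3000 ppm in the titles and the treatment protocol and 5000 ppm in the other fields, so no dose is attached to any value below. The values are linear MAS5 signals in arbitrary units, and the number of arrays limits their precision.

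The arrays resembled each other closely. Over the 15778 probe sets kept for the test, which exceeded the median of the array in 3 or more of the 6 animals, log2 signals correlated at r = 0.972 to 0.974 between momfluorothrin arrays, 0.964 to 0.970 between control arrays and 0.958 to 0.971 across the groups. Array medians were 23.1 to 26.5 in the momfluorothrin group and 27.0 to 29.4 in the control group, although all arrays had a trimmed mean of about 100. All 8 hepatocyte markers, among them the albumin gene Alb, were above the median on every array, and their summed signals were 48566 to 56749 in momfluorothrin livers and 54367 to 61568 in control livers.

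The comparison asked whether transcripts of ester-cleaving enzymes differed after the treated diet. Ces2c rose 3.91-fold, and no other probe set of the family passed the threshold of 0.05 on the adjusted p. The 3 Ces1 probe sets for Ces1d, Ces1e and Ces1f or Cesl1 had signals between 1.17 and 1.24 times the control level, the brighter Ces1c probe set 1.04 times and Aadac 0.911 times, without passing. Of the 7 probe sets, 6 were bright enough to be tested, and each of these 6 was above the array median on every array. Among those 6, 1 was called higher and 0 lower, where 0.133% of all 15778 probe sets were called higher and 0.038% lower. The median log2 difference was 0.24 over the 6 members and -0.035 over all kept probe sets.

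**Figure D1:**
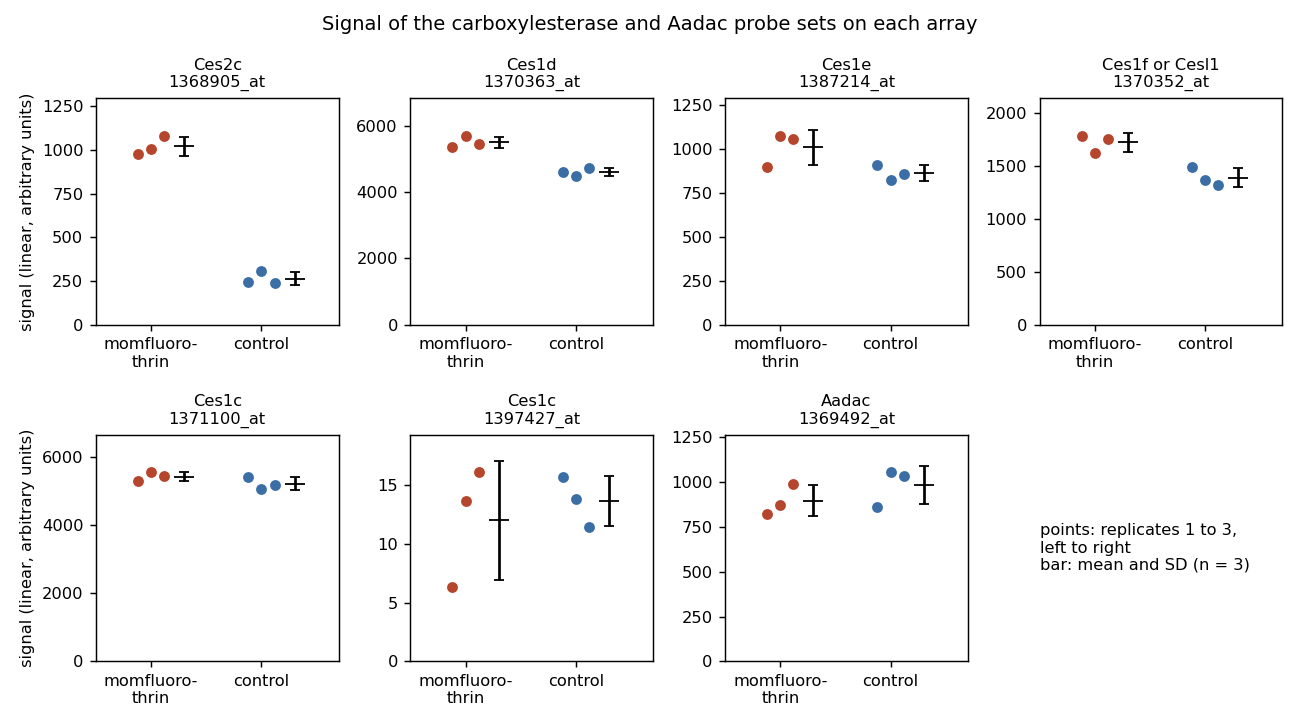
Linear signal of each of the 7 probe sets (vertical axes, arbitrary units, each panel with its own scale from 0) on the 3 momfluorothrin arrays (red) and the 3 control arrays (blue), with the mean and SD of each group beside the points. The Ces2c signals lie between 976 and 1081 in momfluorothrin livers and between 240.2 and 306 in control livers, while the groups overlap for Ces1e, both Ces1c probe sets and Aadac.

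Ces2c encodes a carboxylesterase of the Ces2 subfamily. The signals of its probe set, 1368905_at, were 976, 1008 and 1081 in momfluorothrin replicates 1 to 3, against 243, 306 and 240.2 in control replicates 1 to 3. Every momfluorothrin array was more than 3 times as bright as every control array, so the groups were far apart. The mean was 1022 ± 53.9 in momfluorothrin livers and 263 ± 37.3 in control livers (SD, n = 3 each). The log2 difference was 1.97 ± 0.11 (SE, limma adjusted p = 0.000591), with a 95% interval of 1.71 to 2.22, which corresponds to 3.27-fold to 4.67-fold. Its p was the smallest of all 15778 probe sets, while 12 probe sets had a larger rise. The spread between animals was 5.28% of the mean in momfluorothrin livers and 14.2% in control livers, where the median spread over kept probe sets was 11.5% and 12%.

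The call for Ces2c did not rest on 1 animal. Leaving out each array in turn gave log2 differences of 1.91 to 2.08 with limma adjusted p of 0.000339 to 0.0106, and the gene passed in all 14 alternative settings. The scaling moved it little, from 1.94 with quantile normalization to 2.14 with median centring.

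Markers of other cells were set beside this result. Of 4 listed cholangiocyte markers 3 were measured, 1 was above the median on all arrays, and their summed signal was 143 to 167 in momfluorothrin livers and 87.6 to 111 in control livers; the part of this in the Ces2c result was not tested. Its brightest member, Epcam, an adhesion molecule of bile duct epithelium, had signals of 126 ± 16.6 and 81.8 ± 14.0 in momfluorothrin and control livers (SD, n = 3 each, limma adjusted p = 0.220), and Krt7 was far under the array medians at 2.39 ± 2.41 and 1.05 ± 0.266. Of 4 listed intestinal markers 3 were measured and none was above the median on all arrays. Their sum was 25.6 to 42.9 in momfluorothrin livers and 58.6 to 80.8 in control livers. Most of that difference came from Fabp2, a fatty acid binding protein of the gut, which was under the median on all 3 momfluorothrin arrays, at 13.1 ± 9.51, and above it on all 3 control arrays, at 38.6 ± 9.56 (SD, n = 3 each, limma adjusted p = 0.366). Fabp2 was kept for the test through the control arrays alone, so its filter and its test draw on the same contrast. The part of these markers in the Ces2c result was not tested. The summed signals of the other 6 lists, for Kupffer, stellate, endothelial, lymphoid and myeloid, erythroid and pancreatic cells, overlapped between the groups. Within the endothelial list, Eng was lower on every momfluorothrin array, at 166 ± 1.99 against 227 ± 28.2 in control livers (SD, n = 3 each, limma adjusted p = 0.222). Lyve1, which made up most of that sum, was higher on every momfluorothrin array, at 938 ± 64.5 against 762 ± 141 (SD, n = 3 each, limma adjusted p = 0.429). For the rest of the endothelial list the groups overlapped. In whole liver, a change in the number of cells of a type and a change in RNA per cell cannot be told apart.

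The promoter window of Ces2c is shown because it belongs to the gene that was called. It comes from RefSeq on GRCr8 (chr1:270376951-270377250, plus strand) and runs from 250 bases before to 50 bases after the annotated start, in lower case, with matches to the searched motifs in capitals.
Ces2c: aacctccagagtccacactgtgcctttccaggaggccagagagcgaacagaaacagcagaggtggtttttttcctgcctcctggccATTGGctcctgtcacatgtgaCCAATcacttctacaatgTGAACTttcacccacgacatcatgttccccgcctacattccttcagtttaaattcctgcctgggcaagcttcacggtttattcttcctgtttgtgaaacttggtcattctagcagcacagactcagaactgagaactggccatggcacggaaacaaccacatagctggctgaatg
The motifs were searched on both strands. AGTTCA, an element bound by the receptors CAR and PXR when repeated, occurred 1 time, 125 bases before the start on the opposite strand, and 14.4% of 27457 promoter windows of this length hold it. CCAAT, the box bound by NF-Y, occurred 2 times, 164 and 143 bases before the start, and 37.7% of windows hold it. No match was found in this window for the direct repeats of that element with a spacer of 3 or 4 bases, for the nuclear receptor element AGGTCA, for the antioxidant response core, whose letters are TGACNNNGC, or for the TATA box (TATAAA). The matches describe letters only. The windows of Ces2b and Ces2, which had no probe set, were 74.4% and 72.7% identical to that of Ces2c over the aligned columns.

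Among the Ces1 genes, Ces1d and Ces1f or Cesl1 had all momfluorothrin arrays above all control arrays, and Ces1e and Ces1c did not. Ces1d is known from the mouse as a triacylglycerol hydrolase of the liver that mobilises stored lipid for secretion. Its probe set, 1370363_at, had signals of 5381, 5707 and 5444 in momfluorothrin replicates 1 to 3, against 4603, 4482 and 4742 in control replicates 1 to 3. The groups did not overlap, and the lowest momfluorothrin array was well above the highest control array. The means were 5511 ± 173 and 4609 ± 129.8 in momfluorothrin and control livers (SD, n = 3 each), a log2 difference of 0.26 ± 0.064 (SE) with a 95% interval of 0.11 to 0.40 that did not pass (limma adjusted p = 0.209). The 195 kept probe sets with a mean signal over 4000 had their median log2 difference at -0.091, with 22.6% of the probe sets higher in momfluorothrin livers. In the band of 1000 to 4000, which holds Ces1f or Cesl1, the median was 0.029 and 58.7% were higher. From 200 to 1000, with Ces2c, Ces1e and Aadac, these values were 0.022 and 55.3%. Under 200 they were -0.063 and 39.4%. That band holds 11307 of the 15778 kept probe sets, so values over all kept probe sets rest mostly on it.

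The probe set 1370352_at is annotated to both Ces1f and Cesl1, and its signal cannot be divided between them. Ces1f is known from the mouse as a second triacylglycerol hydrolase. The signals were 1789, 1625 and 1762 in momfluorothrin replicates 1 to 3, against 1495, 1365 and 1319 in control replicates 1 to 3. The lowest momfluorothrin array, replicate 2, was above the highest control array, replicate 1. The means were 1725 ± 87.9 and 1393 ± 91.2 in momfluorothrin and control livers (SD, n = 3 each), with a log2 difference of 0.31 ± 0.082 (SE), a 95% interval of 0.12 to 0.49 and a limma adjusted p of 0.222.

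Ces1e is known from the mouse as egasyn, which holds beta-glucuronidase in the endoplasmic reticulum. Its probe set, 1387214_at, had signals of 895, 1074 and 1056 in momfluorothrin replicates 1 to 3, against 909, 823 and 853 in control replicates 1 to 3. Momfluorothrin replicate 1 lay below control replicate 1, so the groups overlapped, and the other 2 momfluorothrin arrays were above all control arrays. The means were 1008 ± 98.4 and 862 ± 43.4 in momfluorothrin and control livers (SD, n = 3 each), with a log2 difference of 0.22 ± 0.095 (SE), a 95% interval of 0.0072 to 0.44 and a limma adjusted p of 0.426.

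Ces1c encodes the carboxylesterase that the rodent liver secretes into plasma, and its 2 probe sets differed in brightness. The brighter one, 1371100_at, had signals of 5299, 5555 and 5448 in momfluorothrin replicates 1 to 3, against 5425, 5076 and 5179 in control replicates 1 to 3. The groups overlapped, with control replicate 1 above momfluorothrin replicate 1. The log2 difference was 0.056 ± 0.064 (SE, limma adjusted p = 0.766), and its 95% interval of -0.088 to 0.20 holds changes of 0.941-fold to 1.15-fold. The other one, 1397427_at, had signals of 6.31, 13.6 and 16.1 in momfluorothrin replicates 1 to 3, against 15.7, 13.8 and 11.4 in control replicates 1 to 3. All of these were under the array medians, and the probe set was left out of the test. In the fit with no filter on low signals its log2 difference was -0.28 ± 0.49 (SE), with an interval of -1.38 to 0.81 (limma adjusted p = 0.883), so it bears little on Ces1c.

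Aadac had signals of 821, 874 and 990 on its probe set 1369492_at in momfluorothrin replicates 1 to 3, against 859, 1054 and 1037 in control replicates 1 to 3. The groups overlapped, with momfluorothrin replicates 2 and 3 above control replicate 1. The means were 895 ± 86.4 and 983 ± 108 in momfluorothrin and control livers (SD, n = 3 each), with a log2 difference of -0.13 ± 0.11 (SE), a 95% interval of -0.38 to 0.11 and a limma adjusted p of 0.669. With median centring the sign turned, at 0.039 (limma adjusted p = 0.916). Median centring moved the median of all kept probe sets to 0.14, against -0.035 as deposited. It shifts all probe sets alike, so the place of Aadac below that median is the same under both scalings by construction.

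**Figure D2:**
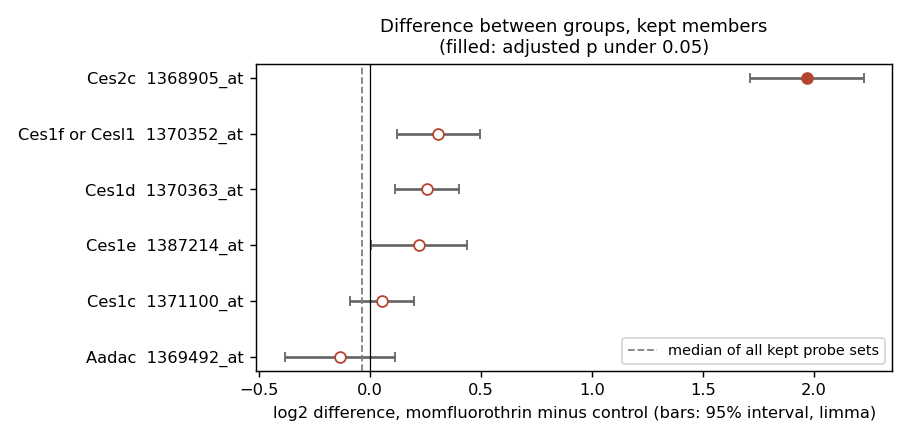
Log2 difference of momfluorothrin minus control (horizontal axis) for the 6 tested probe sets, with 95% intervals of the limma fit and a dashed line at the median of all kept probe sets (-0.035). Only Ces2c, at 1.97, has an adjusted p under 0.05 (filled), and the intervals of Ces1c and Aadac include 0.

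Counted together, 3 of the 6 tested members had all momfluorothrin arrays above all control arrays and 0 the reverse, where 7.4% of all kept probe sets were in the first state and 10.4% in the second. At an unadjusted p under 0.05 in limma, 4 of the 6 were higher and 0 lower, where 4.92% and 6.64% of all kept probe sets were. Most kept probe sets were dimmer than these members, and the share higher differed with brightness, as given beside Ces1d. Leaving out each array in turn, the log2 difference of Ces1d was 0.23 to 0.28. That of Ces1f or Cesl1 was 0.27 to 0.36 and that of Ces1e 0.18 to 0.31. The scaling moved these values further. In the same order they were 0.43, 0.48 and 0.40 with median centring and 0.29, 0.25 and 0.16 with quantile normalization. None of these 3 passed in any of the 14 alternative settings. The brighter Ces1c probe set and Aadac did not pass in any of them either.

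The measured response of Ces2c was larger than that of each other tested member. Taken within each array as the log2 ratio of the 2 signals, the change exceeded that of Ces1d by 1.71, of Ces1e by 1.74, of Ces1f or Cesl1 by 1.66, of Ces1c by 1.91 and of Aadac by 2.10 on the log2 scale. In each of these 5 comparisons the exact permutation p over arrays was 0.1, 2-sided, also after Benjamini-Hochberg adjustment over the 5. This is the smallest p that 3 against 3 arrays allow, so the comparison cannot reach 0.05 in this design. Ces2c was made the reference after its call was seen, and the 5 comparisons share its values, so their equal p do not count as separate results.

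**Figure D3:**
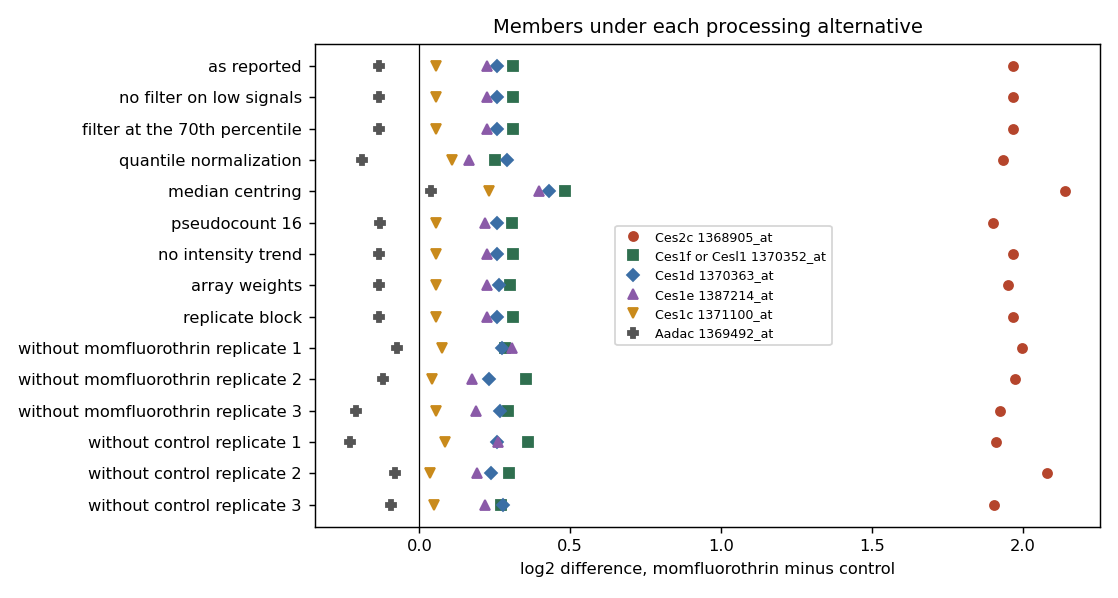
Log2 difference of momfluorothrin minus control (horizontal axis) for each tested probe set under the reported setting and the 14 alternatives (rows). Ces2c stays between 1.90 and 2.14 in all of them, and Aadac is above 0 with median centring alone.

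In the rat gene table Ces1f, Ces1e, Ces1d, Ces1c and Ces1a follow each other directly on chromosome 19, in this order, while Ces2c lies on chromosome 1 between pseudogenes of the family and near Ces2i. The windows of Ces1d, and of Ces1f and Cesl1, which share a probe set, are shown with that of Ces1c, whose groups overlapped. They come from RefSeq on GRCr8, on the plus strand for Ces1d, Ces1f and Ces1c (chr19:30046244-30046543, chr19:29969383-29969682 and chr19:30099197-30099496) and on the minus strand for Cesl1 (chr19:38596215-38596514), with motif matches in capitals as above.
Ces1d: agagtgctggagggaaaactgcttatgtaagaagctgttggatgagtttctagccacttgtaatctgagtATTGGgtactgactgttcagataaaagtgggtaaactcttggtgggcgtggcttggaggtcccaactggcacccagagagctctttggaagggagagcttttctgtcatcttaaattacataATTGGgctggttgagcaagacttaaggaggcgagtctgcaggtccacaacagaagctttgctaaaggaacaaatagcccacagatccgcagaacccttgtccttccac
Ces1f: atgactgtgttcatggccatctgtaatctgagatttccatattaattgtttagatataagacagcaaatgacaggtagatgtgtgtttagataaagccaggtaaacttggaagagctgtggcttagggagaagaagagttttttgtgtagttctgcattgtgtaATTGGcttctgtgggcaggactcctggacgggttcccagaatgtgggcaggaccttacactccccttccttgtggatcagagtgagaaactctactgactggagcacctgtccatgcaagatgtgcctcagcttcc
Cesl1: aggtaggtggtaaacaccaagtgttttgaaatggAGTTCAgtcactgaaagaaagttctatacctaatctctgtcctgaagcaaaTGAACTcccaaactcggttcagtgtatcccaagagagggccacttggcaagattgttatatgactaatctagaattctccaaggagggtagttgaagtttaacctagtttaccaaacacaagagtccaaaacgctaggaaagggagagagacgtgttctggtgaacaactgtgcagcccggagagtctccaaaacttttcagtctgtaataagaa
Ces1c: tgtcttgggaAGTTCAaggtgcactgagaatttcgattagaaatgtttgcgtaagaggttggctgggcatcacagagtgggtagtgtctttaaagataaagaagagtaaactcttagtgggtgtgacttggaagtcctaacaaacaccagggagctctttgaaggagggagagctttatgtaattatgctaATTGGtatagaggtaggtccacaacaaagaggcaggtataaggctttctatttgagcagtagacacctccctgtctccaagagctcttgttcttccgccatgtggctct
CCAAT occurred on the opposite strand 58 bases before the start of Ces1d, 86 before that of Ces1f and 59 before that of Ces1c, a further match stood 180 bases before the start of Ces1d, and the Cesl1 window held none. AGTTCA occurred 2 times in the Cesl1 window, 216 and 165 bases before the start, 1 time in the Ces1c window, 240 bases before the start, and not in those of Ces1d and Ces1f. The Ces1e and Aadac windows, not shown, held it 1 time each, 8 bases after the start of Ces1e and 199 bases before that of Aadac. The windows of Ces1d and Ces1c were 55.7% identical, while they were 50.1% and 48.5% identical to that of Aadac, which is of another family. That of Ces1dl1, a Ces1d-like gene with no probe set, was 83.5% identical to that of Ces1d, and whether its RNA adds to the Ces1d signal was not tested.

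None of the tested genes near the members in the genome passed. Of 21 neighbouring genes with a probe set of their own, up to 3 on either side of each member, 13 were bright enough to be tested, with log2 differences of -0.46 to 0.20 and no gene with separated groups, where 0.217% of 9200 genes passed and 18.3% had separated groups. At an unadjusted p under 0.05 in limma the count was also 0. The 3 with the smallest p were the lysosomal mannosidase gene Man2b1 at 0.20 ± 0.11, Wdr83os at 0.16 ± 0.099 and the splicing regulator Mbnl1 at -0.13 ± 0.084 (SE, limma adjusted p = 0.516, 0.573 and 0.58). On 1 side of the Ces1 cluster 457 or more entries of the table lay between a member and its nearest gene with a probe set, so closeness differs between members.

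Other hydrolases of ester, amide, epoxide and thioester bonds gave 1 call. Of 51 listed genes, 44 had a probe set of their own and 38 were tested. Ephx1, the microsomal epoxide hydrolase, rose, 0 fell and 37 did not pass, where 0.196% of 9200 genes were called higher and 0.0217% lower. Ephx1 had signals of 3768 ± 343 in momfluorothrin livers and 1813 ± 239.7 in control livers (SD, n = 3 each), a log2 difference of 1.06 ± 0.11 (SE, limma adjusted p = 0.0109). That call was lost without momfluorothrin replicate 2 (limma adjusted p = 0.0871), without momfluorothrin replicate 3 (0.0655) and without an intensity trend (0.144). A fit blocked on replicate number, which no label says pairs animals, also lost it (limma adjusted p = 0.0564). With the brightest probe set for each gene, the median log2 difference was 0.074 over the 38 genes and -0.012 over all 9200 genes. On these probe sets 7 had all momfluorothrin arrays above all control arrays and 2 the reverse, where 9.04% and 9.23% of all genes did.

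Named after their values were seen, the next genes by p were Lipc, Acot8 and Pon3. Lipc, the hepatic lipase, had signals of 2007 ± 139 and 2768 ± 192 in momfluorothrin and control livers, a log2 difference of -0.46 ± 0.084 (SE, n = 3 each, limma adjusted p = 0.104). Acot8, a peroxisomal acyl-CoA thioesterase, had a difference of 0.75 ± 0.18 (SE, limma adjusted p = 0.187) and passed without control replicate 2, at 0.96 (limma adjusted p = 0.0424). Pon3, a lactonase of the paraoxonase family, had 0.44 ± 0.11 (SE, limma adjusted p = 0.209), while its relatives Pon1 and Pon2 had -0.11 ± 0.064 and 0.012 ± 0.081.

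**Figure D4:**
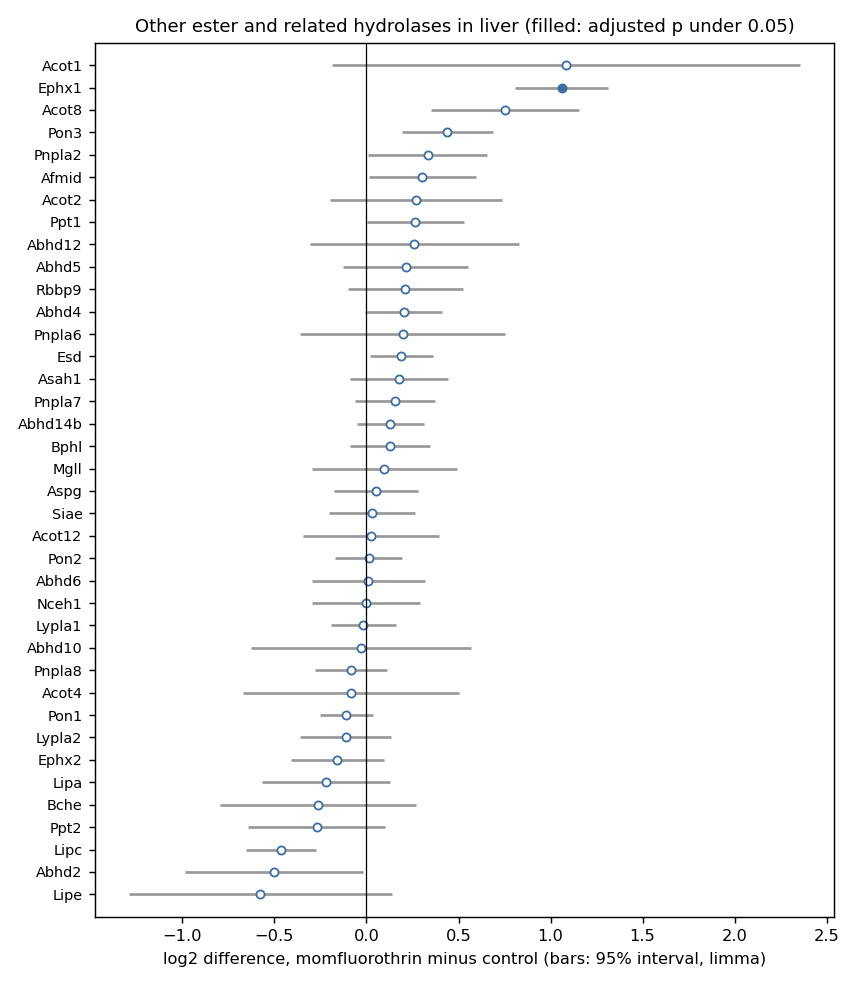
Log2 difference of momfluorothrin minus control (horizontal axis) for the 38 tested hydrolase genes outside the family, 1 probe set each, with 95% intervals of the limma fit. Ephx1, at 1.06, is the only gene with an adjusted p under 0.05 (filled), and Acot1, at 1.08, has an interval that includes 0.

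The P450s known to oxidise pyrethroids in the rat gave no call in either direction. Of 7 listed symbols, 5 had a probe set of their own and 4 were tested, with a median log2 difference of -0.17 against -0.012 over all genes. At an unadjusted p under 0.05 in limma 1 was lower, where 6.18% of all genes were. For Cyp3a2 and Cyp2c11, 2 of the 4, all momfluorothrin arrays were below all control arrays, where 9.23% of all genes were in this state. Cyp3a2 had signals of 6541 ± 295.6 in momfluorothrin livers and 7318 ± 353 in control livers (SD, n = 3 each), a log2 difference of -0.16 ± 0.069 (SE, limma adjusted p = 0.425). Cyp2c11, the male-predominant P450, had -0.14 ± 0.066 and Cyp3a23-3a1 had -0.17 ± 0.14 (SE, limma adjusted p = 0.474 and 0.657). These signals are in the range above 4000, whose median is given beside Ces1d.

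Among 8 receptors and regulators of carboxylesterase genes, none passed, with a median log2 difference of 0.14. At an unadjusted p under 0.05 in limma, 1 was higher and 1 lower, where 6.05% and 6.18% of 9200 genes were. The groups did not overlap for Nr1i3 and Rxra, both higher, and for Nfe2l2, lower, where 9.04% and 9.23% of all genes were in these states; Rxra, named for this count, had a log2 difference of 0.18 ± 0.11 (SE, limma adjusted p = 0.563). Nfe2l2, which encodes NRF2, the transcription factor that acts on antioxidant response elements, had signals of 534 ± 91.9 and 724 ± 46.4 in momfluorothrin and control livers (SD, n = 3 each), a log2 difference of -0.45 ± 0.13 (SE, limma adjusted p = 0.248). Nr1i3, which encodes CAR, had signals of 371 ± 29.8 and 300.3 ± 47.7 in momfluorothrin and control livers, a difference of 0.32 ± 0.13 (SE, n = 3 each, limma adjusted p = 0.421). Ahr had 0.34 ± 0.19 (SE, limma adjusted p = 0.527).

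The genes whose values over the 6 arrays were nearest to those of Ces2c all belonged to those called higher, 0.133% of all kept probe sets. Picking by nearness to Ces2c favours such genes. Likeness was measured as the root mean square difference of log2 signals, each centred on its control mean, so genes with a rise of like size come first and the measure is a description over 6 arrays. The nearest was Ggt1, the gamma-glutamyltransferase, at 0.279. It was followed by the aldo-keto reductase Akr7a3 at 0.314, the glucuronosyltransferase Ugt2b1 at 0.336, the crystallin-related dehydrogenase Cryl1 at 0.404 and the glutathione transferase Gstt3 at 0.537. Their log2 differences were 2.19, 1.94, 1.64, 2.39 and 1.28 in that order, against 1.97 for Ces2c.

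**Figure D5:**
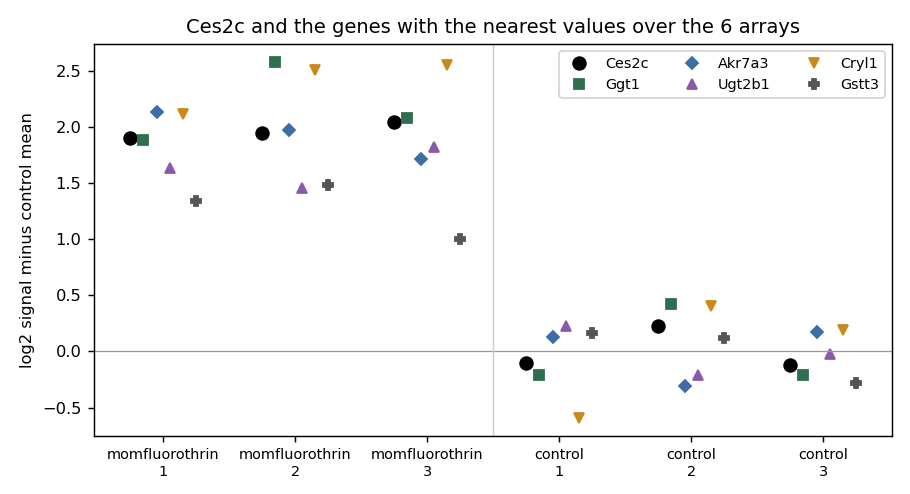
Log2 signal minus the control mean (vertical axis) on each of the 6 arrays (horizontal axis, momfluorothrin arrays left of control arrays) for Ces2c (black circles) and the 5 genes nearest to it. All 6 genes have every momfluorothrin array above every control array, as have 7.4% of all kept probe sets. The 5 were picked for values near those of Ces2c on these same arrays, which favours such genes.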

How the data were processed

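Liver RNA of 6 rats was measured on Affymetrix arrays, 3 per group. The authors deposited a table of linear signal intensity values per probe set, and the software was MAS5, per the submitters' processing notes; no version or setting of it is given in the sources used here. The arrays shared a trimmed mean (2% left out at each end) of about 100, so no further scaling was applied, and no detection calls were used. Of 31099 probe sets, 57 control probe sets were left out. The platform annotation held by GEO gave 20826 probe sets 1 gene symbol, 436 several and 9780 none; 20758 matched the rat gene table of GRCr8 by gene ID. For listed genes the brightest kept probe set (mean log2 signal) stood for the gene, among 9200 genes.

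Log2 signals, with no pseudocount, were tested 2-sided in limma 3.58.1 under R 4.3.3, using lmFit and eBayes with a trend on intensity, and p-values were adjusted by Benjamini-Hochberg over 15778 kept probe sets. All log2 differences are momfluorothrin minus control. Promoters were searched and aligned with Biopython 1.88.

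The members and the gene lists were chosen with earlier results of these data known. Named genes are all members, of each list the genes past the threshold or, where none was, the 3 with the smallest p, and the 5 nearest to Ces2c. Outside this rule, and with their values known, Lipc, Acot1, Acot8 and the Pon genes were named among hydrolases, and Rxra among receptors. The same holds for Alb, Epcam, Krt7, Fabp2, Eng and Lyve1 among markers. Replicate numbers were not taken to pair the animals. Per the labels each replicate is 1 animal, and no batch is given.

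The alternatives changed the filter, the scaling, the pseudocount (16), the variance model, array weights and the replicate block, and left out each array. The comparison of responses between members was added after seeing the data.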

Additional observations from a re-analysis of the deposited data

How the results depend on the processing

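Ces2c kept its direction and its call in all 14 alternatives, the counts of members called stayed at 1 higher and 0 lower, and the other members did not pass in any. Aadac turned sign with median centring (0.039). No other member changed sign. The count of all probe sets called, 21 higher and 6 lower, moved more. It was 65 higher and 5 lower with median centring, 3 higher and 0 lower without an intensity trend, 10 higher with the replicate block and 3 lower with no filter on low signals. Leaving out 1 array gave 3 to 23 higher and 2 to 6 lower; the low ends were without momfluorothrin replicate 2 (3 higher, 2 lower) and without momfluorothrin replicate 3 (5 higher, 3 lower), and without momfluorothrin replicate 1 there were 13 higher and 3 lower. The count of other hydrolases called higher, 1, was 0 without an intensity trend and with the replicate block and 0 to 2 when 1 array was left out; 2 was reached without control replicate 2, by Ephx1 and Acot8. No label says that equal replicate numbers pair animals, and same-numbered arrays correlated at -0.10, 0.10 and -0.065 in their deviations from the group means, with replicate 2 the only number whose arrays correlated best with each other. With the replicate block Ces2c stayed at 1.97 (limma adjusted p = 0.00399), and the call for Ephx1, at 1.06, was lost (limma adjusted p = 0.0564). The causes of these moves were not tested. Signals under the array median, such as those of the dimmer Ces1c probe set, limit what can be read from them.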
